A study of Mus musculus with 10 samples.

Results

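The genes described here encode the subunits of the 5 oxidative phosphorylation complexes of the mitochondrion, as measured in tracheal mesenchyme of mice that breathed chlorine and of mice that did not. Members were chosen by name alone, as symbols beginning with Nduf and a subunit letter (complex I), the symbols Sdha to Sdhd (complex II), and symbols beginning with Uqcr (complex III), Cox and a number from 4 to 8 (complex IV) or Atp5 (complex V), leaving out Ndufa4l2. The annotation held 89 such symbols, and 80 of them had a probe set of their own, out of 22180 genes measured in all. They were 33 genes of complex I, 4 of complex II, 8 of complex III, 17 of complex IV and 18 of complex V. The other 9 (Cox6c, Ndufb2, Ndufb4, Ndufb4b, Ndufb4c, Ndufs5-ps, Ndufs6, Ndufs6b and Uqcr10) shared every probe set with another symbol and have no value here. Of the 80 measured, 78 are protein-coding and 2, Atp5c1-ps and Uqcrh-ps1, are pseudogenes kept by the naming rule.

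All animals were male FVB/NJ mice, an inbred strain, aged 9 weeks. The exposed group was 5 mice placed with their whole bodies in air holding 235 ppm chlorine for 1 hr and killed 4 days later, and the other 5 are labelled unexposed. Tissue under the tracheal epithelium was cut from stained frozen sections with a laser microscope and combined over the sections of each mouse, and 1 Affymetrix array was hybridised per mouse. Values are log2 intensities, so that a difference of 1 is a 2-fold difference, and the number of arrays limits their precision.

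Oxidative phosphorylation passes electrons from food molecules to oxygen and uses the energy to make ATP. Complex I takes electrons from NADH and complex II from succinate, complex III hands them on through cytochrome c to complex IV, which reduces oxygen, and complex V, the ATP synthase, is driven by the protons that complexes I, III and IV have pumped. Most subunits are encoded in the nucleus and needed in nearly every cell, but several subunits of complex IV exist as a widespread form and as a form restricted to muscle, brown fat, lung or testis.

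The captured tissue held RNA of several cell types, and their markers are given first. All 6 fibroblast markers were well represented, the lowest of them with a mean of 8.65 over the 10 mice. Their list mean was higher in every exposed mouse (10.33 to 11.04, unexposed 9.99 to 10.29), with 3 of the 6, the collagens Col1a1 and Col3a1 and the receptor Pdgfra, called higher. The other 3 were not called, Col1a2 and Lum with changes of 0.34 each and Dcn with a change of -0.14. Means of the marker lists for ciliated epithelium (exposed 4.49 to 8.53, unexposed 8.71 to 9.29) and secretory epithelium (5.18 to 11.23 against 11.74 to 11.99) were lower in every exposed mouse. Those for macrophages (7.66 to 8.37 against 6.81 to 7.38) and dividing cells (7.64 to 8.64 against 5.48 to 5.79) were higher in every exposed mouse. Of the 8 macrophage markers 6 were called higher, while Cd14 changed by -0.28 and was not called. Exposed mouse 3 had the lowest secretory mean, and exposed mouse 2 the lowest adipocyte mean (5.22, against 6.44 to 8.20 in the other 9 mice). The part of these differences in the values below was not tested, and in such tissue fewer cells of a type and less RNA per cell cannot be told apart.

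The nuclear-encoded respiratory chain and ATP synthase genes differed little between the groups. Of the 80 members, 1 was called higher in exposed mice and 0 lower (limma, adjusted p under 0.05), a share of 1.25%, where 10.8% of all 22180 genes were called, 5.85% higher and 4.97% lower. The member called was Cox6a2, a muscle-type subunit of complex IV, described below. At an unadjusted p under 0.05, 6 members were higher and 0 lower, where 24.4% of all genes passed, 12.4% higher and 11.9% lower. The median log2 change of the members, exposed minus unexposed, was 0.059, and that of all genes was -0.0035. Changes were above 0 for 52 members and below 0 for 28, where 49.4% of all genes were above 0. For 73 members (91.2%) the 95% interval of the change lay within 1.5-fold in either direction, as it did for 66.3% of all genes. The 7 with wider intervals were Cox6a2, Cox6b2, Cox7a1, Cox8b, Ndufs5, Atp5j2 and the pseudogene Uqcrh-ps1. Members also varied little from mouse to mouse, with a median within-group SD of 0.14 where that of all genes was 0.22.

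**Figure D1:**
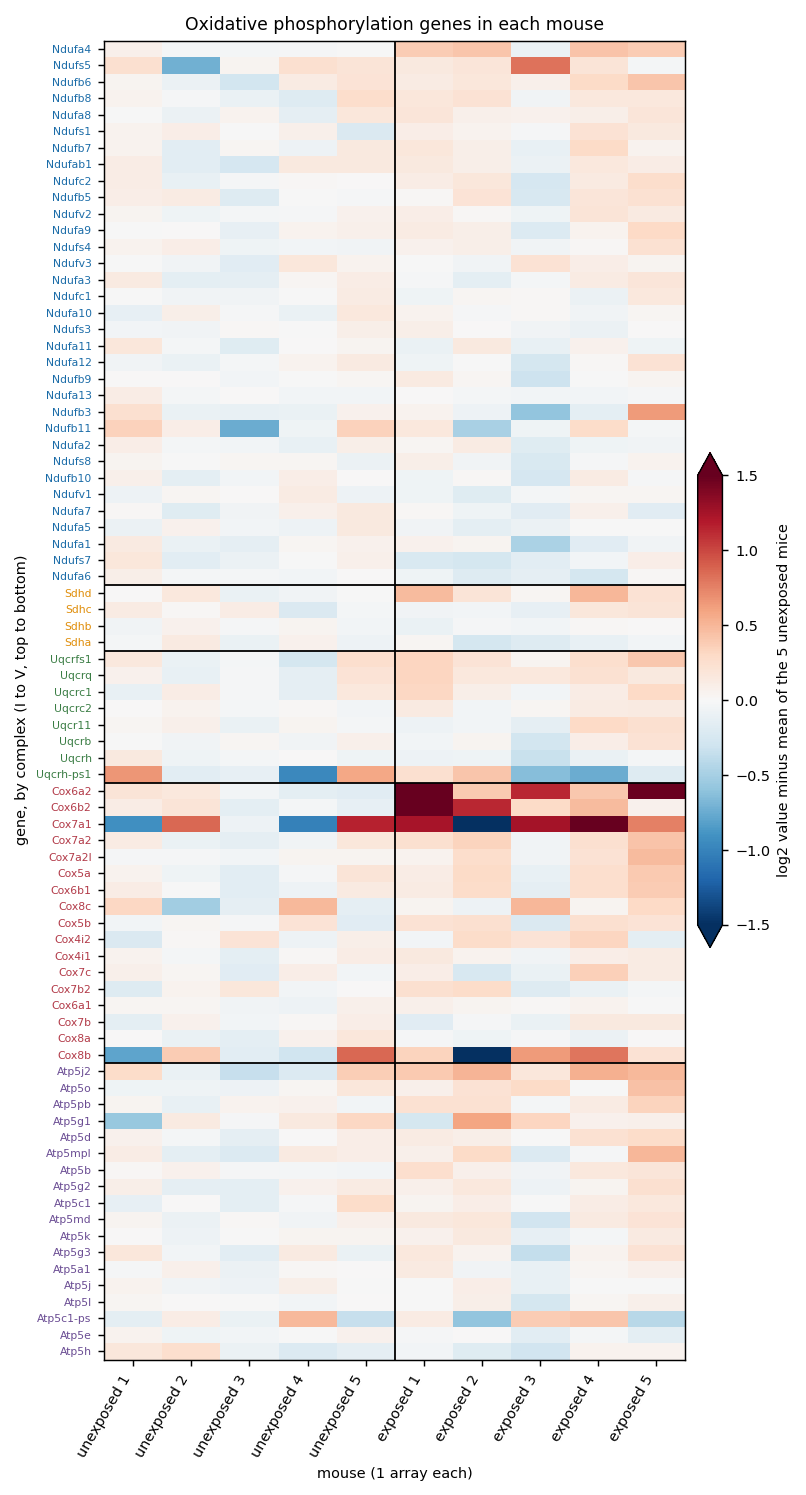
Log2 value of each of the 80 members (rows, by complex from I at the top to V at the bottom) in each mouse (columns), minus the mean of the 5 unexposed mice, with the colour scale ending at 1.5 in either direction. Most rows stay pale in all 10 mice, while Cox6a2, Cox6b2, Cox7a1 and Cox8b of complex IV carry the strong colours.

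**Figure D2:**
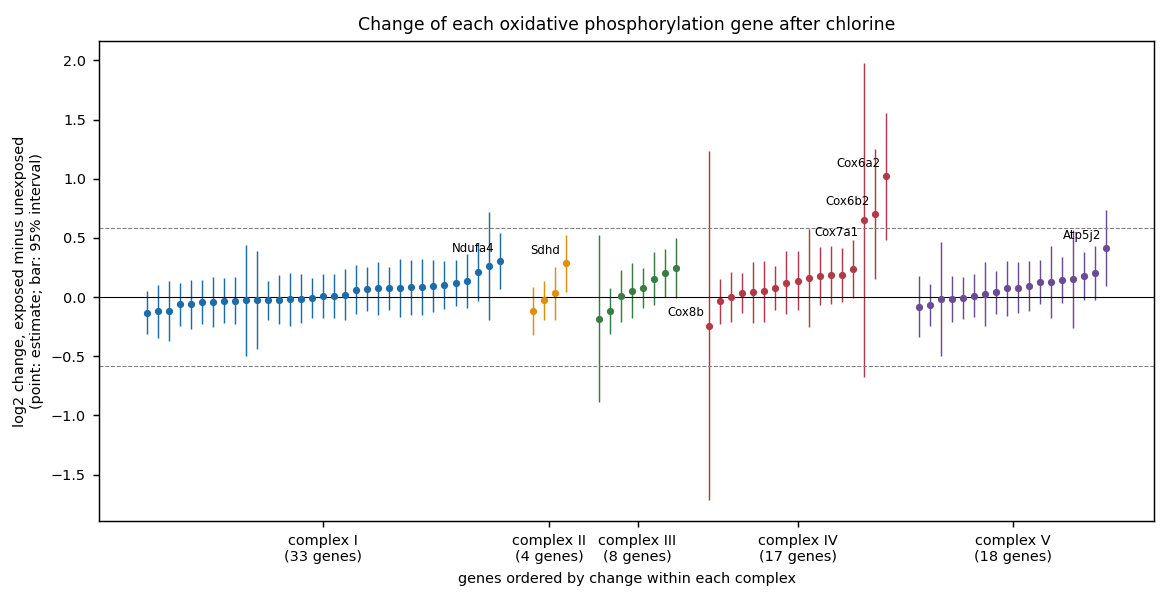
Log2 change of each member, exposed minus unexposed, with its 95% interval from limma (5 mice a group), ordered within each complex, with dashed lines at a 1.5-fold change. The intervals of 73 of the 80 members lie between the dashed lines.

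With the 7 restricted isoforms and both pseudogenes set aside, 71 members remained, of which 0 were called by limma in either direction, 4 were higher at an unadjusted p under 0.05 and 0 lower. Averaged over these 71 genes, the level was 8.75, 8.73, 8.58, 8.77 and 8.82 in exposed mice 1 to 5 and 8.71, 8.64, 8.59, 8.67 and 8.74 in unexposed mice 1 to 5. The groups overlapped, and exposed mouse 3 was the lowest of the 10 (8.58), nearly tied with unexposed mouse 3 (8.59). Exposed mouse 3 had the lowest secretory epithelium mean (5.18), while that of unexposed mouse 3 was 11.79.

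Complex I is built around a catalytic core that oxidises NADH and passes its electrons along iron-sulphur clusters to coenzyme Q, with many accessory subunits around it. None of its 33 measured genes was called, 1 was higher at an unadjusted p under 0.05 and 0 were lower, and their median change was 0.0077. The 6 core genes measured (Ndufv1, Ndufv2, Ndufs1, Ndufs3, Ndufs7 and Ndufs8) changed by -0.12 to 0.10, with all 6 intervals within 1.5-fold. Ndufv1, which carries the NADH-binding site, changed by -0.044 (SE 0.084) and Ndufs1, the largest iron-sulphur subunit, by 0.10 (SE 0.091).

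The complex I gene nearest to a call was Ndufa4, whose protein was first assigned to complex I and has since been placed in complex IV. It stood at 11.78, 11.81, 11.31, 11.82 and 11.78 in exposed mice 1 to 5 and at 11.47, 11.37, 11.37, 11.38 and 11.40 in unexposed mice 1 to 5. The 4 exposed mice other than mouse 3 lay above all unexposed mice, and mouse 3 lay below them all. The change was 0.30 (SE 0.11, adjusted p = 0.107), and without exposed mouse 3 it was 0.40 (adjusted p = 0.00854), the lowest adjusted p over the alternatives, where the highest was 0.207. Ndufa4 was also called with trend and robust variances (adjusted p = 0.0427) and with array weights (adjusted p = 0.0312), fits in which 11.9% and 12.4% of all genes were called. Next came Ndufb6, an accessory subunit of the membrane arm, which changed by 0.21 (SE 0.11, adjusted p = 0.280). The largest negative change in complex I was that of the accessory subunit Ndufa6, -0.13 (SE 0.084, adjusted p = 0.392), where exposed values were 9.21 to 9.50 and unexposed values 9.45 to 9.57.

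Complex II, succinate dehydrogenase, has 4 subunits, all encoded in the nucleus, and is also an enzyme of the tricarboxylic acid cycle. None of the 4 was called, although the membrane anchor Sdhd was higher at an unadjusted p under 0.05. Sdhd stood at 8.05, 7.76, 7.60, 8.07 and 7.79 in exposed mice 1 to 5 and at 7.58, 7.72, 7.46, 7.51 and 7.56 in unexposed mice 1 to 5. Exposed mouse 3 fell within the unexposed range and the other 4 lay above it, for a change of 0.29 (SE 0.11, adjusted p = 0.129). The other anchor, Sdhc, changed by 0.032 (SE 0.10), the flavoprotein Sdha, which oxidises succinate, by -0.12 (SE 0.092), and the iron-sulphur subunit Sdhb by -0.028 (SE 0.075). Sdhb lay between 7.45 and 7.62 in all 10 mice.

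Complex III takes electrons from coenzyme Q. Of its 8 measured genes 0 were called, 1 was higher at an unadjusted p under 0.05 and 0 were lower, and the median change was 0.067. Uqcrq, a small accessory subunit, stood at 9.26, 9.10, 9.09, 9.16 and 9.08 in exposed mice 1 to 5 and at 9.00, 8.82, 8.91, 8.80 and 9.14 in unexposed mice 1 to 5, with a change of 0.21 (SE 0.092, adjusted p = 0.194). Uqcrfs1, the Rieske iron-sulphur protein, changed by 0.24 (SE 0.12, adjusted p = 0.225), from 6.80 ± 0.21 to 7.05 ± 0.13 (SD, n = 5 each). The core proteins Uqcrc1 and Uqcrc2 changed by 0.16 and 0.078. The lowest change, that of the pseudogene Uqcrh-ps1 (-0.18, SE 0.32), came with values of 2.73 to 4.36 over the 10 mice, among the dimmest of the members.

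Complex V consists of the F1 head, which makes ATP, a rotating ring of c subunits in the membrane and a peripheral stalk. None of its 18 genes was called, 1 was higher at an unadjusted p under 0.05 and 0 were lower, with a median change of 0.077. The 5 head genes (Atp5a1, Atp5b, Atp5c1, Atp5d and Atp5e) changed by -0.068 to 0.14, and all 5 intervals lay within 1.5-fold. Atp5g1, Atp5g2 and Atp5g3, which encode the same mature c subunit, changed by 0.16 (SE 0.19), 0.090 (SE 0.097) and 0.025 (SE 0.12). The 4 stalk genes changed by -0.082 (Atp5h) to 0.20 (Atp5o, SE 0.10, adjusted p = 0.265). The highest change in the complex was that of Atp5j2, an accessory subunit of the membrane part. It stood at 5.48, 5.58, 5.24, 5.61 and 5.56 in exposed mice 1 to 5 and at 5.36, 4.98, 4.73, 4.88 and 5.45 in unexposed mice 1 to 5. The groups overlapped through exposed mouse 3 and unexposed mice 1 and 5, and the change of 0.42 (SE 0.15) did not pass (adjusted p = 0.102). Without unexposed mouse 5 it was 0.51 (adjusted p = 0.0490), the lowest adjusted p over the alternatives, where the highest was 0.206.

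Complex IV, cytochrome c oxidase, held the largest differences, and they lay in its restricted isoforms. Of its 17 genes, 1 was called higher (5.88%) and 0 lower, where 5.85% of all genes were called higher and 4.97% lower. At an unadjusted p under 0.05, 2 were higher and 0 lower, where 12.4% of all genes were higher and 11.9% lower. The median change of the 17 was 0.14. The 10 genes with no restricted pattern changed by -0.036 to 0.24, and all 10 intervals lay within 1.5-fold. Among them Cox4i1, which carries a regulatory ATP-binding site, changed by 0.076 (SE 0.085), Cox6a1 by 0.035 (SE 0.076), Cox6b1 by 0.17 (SE 0.11), Cox7b by -0.0011 (SE 0.096) and Cox8a by -0.036 (SE 0.087). Cox7a2 changed by 0.24 (SE 0.11, adjusted p = 0.214) and Cox7a2l, which takes part in joining complexes III and IV into supercomplexes, by 0.19 (SE 0.10, adjusted p = 0.312). For both, 4 of the 5 exposed mice lay above all unexposed mice, and exposed mouse 3 did not.

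Cox6a2, the heart and skeletal muscle form of subunit VIa, rose. It stood at 7.33, 6.02, 6.75, 6.02 and 7.10 in exposed mice 1 to 5 and at 5.82, 5.79, 5.59, 5.47 and 5.45 in unexposed mice 1 to 5. All 5 exposed mice lay above all 5 unexposed mice, mice 2 and 4 by a small margin and mice 1, 3 and 5 by a wide one. Cox6a2 was the only member whose groups did not overlap, 1.25% of the 80, where the groups of 11% of all genes did not, 5.89% with the exposed mice higher and 5.06% with them lower. Its mean went from 5.62 ± 0.17 to 6.64 ± 0.60 (SD, n = 5 each), 2.03-fold higher, with a log2 change of 1.02 (SE 0.25) and an adjusted p of 0.0214. Leaving out exposed mouse 5 raised the adjusted p to 0.0518, and leaving out either of unexposed mice 4 and 5 raised it to 0.0541 and 0.0523, so that the call was lost, and the change then lay between 0.91 and 0.98. The members called were then Cox6b2 without exposed mouse 5, none without unexposed mouse 4 and Atp5j2 without unexposed mouse 5. The widespread form Cox6a1 stood between 11.59 and 11.74 in all 10 mice. The difference between the log2 values of Cox6a2 and Cox6a1 within each array was 0.99 higher in exposed mice (SE 0.28, two-sided exact permutation p = 0.00794, the smallest that 5 mice against 5 allow, adjusted p = 0.0317 over the 4 isoform pairs compared). Its adjusted p stayed at 0.0317 without any 1 exposed mouse and was 0.0952 to 0.159 without any 1 unexposed mouse, where it no longer passed.

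Of 9 markers of striated muscle 0 were called higher and 1, Tnnt3, lower, and their mean ranged from 5.01 to 5.28 in the exposed group and from 4.90 to 5.46 in the unexposed group. Their changes ran from -1.07 (Tnnt3, a fast troponin) to 0.75 (Acta1). The muscle myosins Myh1, Myh2 and Myh4 changed by 0.044, -0.22 and -0.14 and the muscle creatine kinase Ckm by 0.064. The myosins were dim, with group means of 3.22 to 4.90, and no detection limit was at hand. Their values do not show that they were expressed, nor whether muscle RNA changed. Myoglobin (Mb) changed by 0.43 (SE 0.26, adjusted p = 0.367). Of the 3 mice highest in Cox6a2, exposed mouse 5 stood at 6.32 in Mb, mouse 3 at 5.27 and mouse 1 at 4.82, where unexposed mice reached 5.25. The skeletal actin Acta1 was higher in each exposed mouse (5.59 to 6.97) than in each unexposed mouse (4.85 to 5.59), the highest unexposed and lowest exposed values nearly meeting, and its change of 0.75 (SE 0.25) did not pass (adjusted p = 0.0888). Among exposed mice Acta1 was highest in mouse 1 and lowest in mouse 5. The highest mean of the smooth muscle markers was 10.73 in the exposed and 10.77 in the unexposed group. The part of muscle RNA in the Cox6a2 values was not tested.

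Cox6b2, known as the testis form of subunit VIb, showed the second-largest change. It stood at 9.04, 8.61, 7.76, 7.95 and 7.54 in exposed mice 1 to 5 and at 7.59, 7.66, 7.33, 7.44 and 7.35 in unexposed mice 1 to 5. Exposed mice 1 and 2 were far above the rest, and exposed mouse 5 fell within the unexposed range. The change was 0.71 (SE 0.25, adjusted p = 0.103), and without exposed mouse 5 it was 0.87 (adjusted p = 0.0485), the lowest adjusted p over the alternatives, where the highest was 0.202. Exposed mice 1 and 2 were also the exposed mice with the highest ciliated epithelium means (8.53 and 7.87, against 4.49 to 6.13 in the other 3), whose part in the Cox6b2 values was not tested. Both means lay below those of all unexposed mice, but the 7 ciliated markers measured did not all do so. In exposed mouse 1, Tekt1 (7.74) and Rsph1 (10.15) stood above the highest unexposed values (7.39 and 9.89) and Foxj1 (8.24) within the unexposed range. Sntn, Cdhr3, Dnah5 and Tmem212 stood below that range in exposed mouse 1. In exposed mouse 2, no marker stood above the unexposed values. Tekt1 (7.06) and Rsph1 (9.79) lay within their range there, and Foxj1 (7.52), Sntn, Cdhr3, Dnah5 and Tmem212 below it. The other testis forms were dim, Cox7b2 at 2.08 to 2.55 and Cox8c at 2.56 to 3.59 over the 10 mice, with changes of 0.039 (SE 0.12) and 0.16 (SE 0.19). With no detection limit at hand, such values do not show that either gene was expressed. Cox4i2, the form of subunit IV known from lung and from smooth muscle of its vessels, changed by 0.12 (SE 0.12, adjusted p = 0.602), and its difference from Cox4i1 within arrays by 0.047 (SE 0.15, exact permutation p = 0.754, adjusted p = 0.921).

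**Figure D3:**
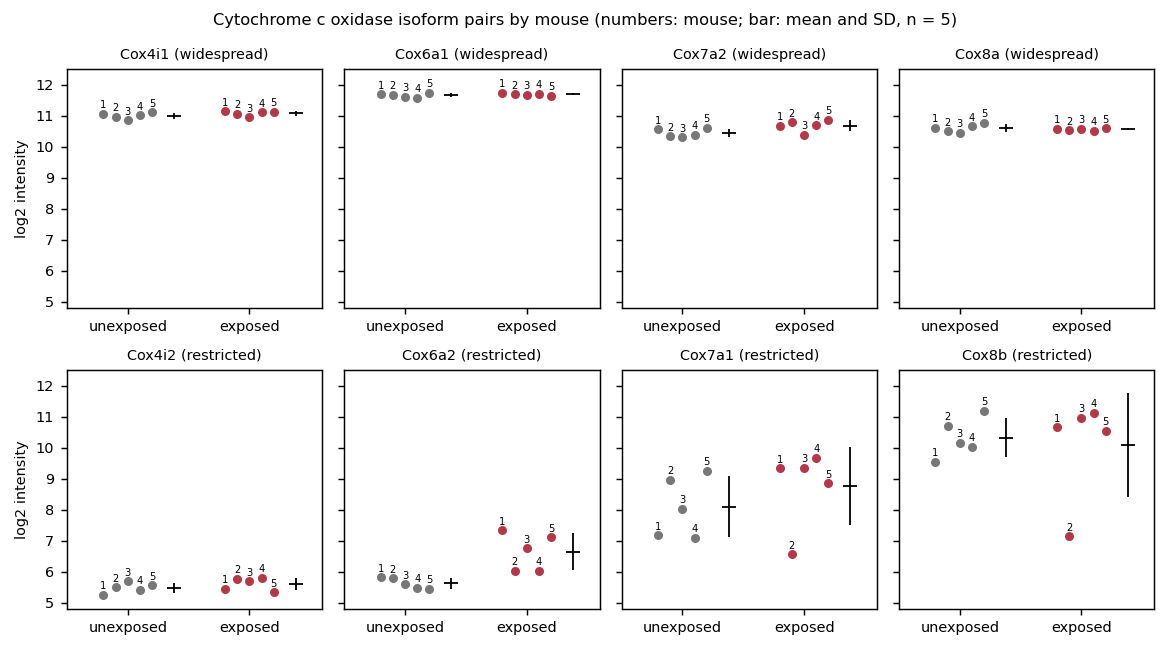
Log2 intensity of the widespread (top) and restricted (bottom) isoform of 4 complex IV subunits in each mouse, with the group mean and SD (n = 5) beside the points. Cox4i1, Cox6a1 and Cox8a each span a narrow range, Cox7a2 lies above all unexposed mice in 4 of the 5 exposed mice, Cox6a2 is higher in every exposed mouse, and Cox7a1 and Cox8b vary widely within both groups.

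Cox7a1 and Cox8b, the forms of subunits VIIa and VIII found in heart, skeletal muscle and brown fat, differed more between mice of a group than between the groups. Cox8b stood at 10.66, 7.13, 10.97, 11.14 and 10.54 in exposed mice 1 to 5 and at 9.54, 10.71, 10.17, 10.03 and 11.19 in unexposed mice 1 to 5. Exposed mouse 2 lay far below the other 9 mice. Cox7a1 stood at 9.34, 6.56, 9.35, 9.67 and 8.86 in exposed mice 1 to 5 and at 7.18, 8.96, 8.03, 7.08 and 9.26 in unexposed mice 1 to 5. Exposed mouse 2 was again the lowest, followed by unexposed mice 4 and 1. The within-group SDs of Cox8b and Cox7a1, 1.26 and 1.14, were the largest of all 80 members. Their changes were -0.24 (SE 0.67, adjusted p = 0.878) and 0.65 (SE 0.61, adjusted p = 0.576), with 95% intervals of -1.71 to 1.23 and -0.67 to 1.98. Without exposed mouse 2 the changes were 0.50 (adjusted p = 0.364) and 1.20 (adjusted p = 0.129). The isoform differences within arrays, Cox8b minus Cox8a and Cox7a1 minus Cox7a2, changed by -0.20 (SE 0.79, exact permutation p = 0.921, adjusted p = 0.921) and 0.42 (SE 0.75, exact permutation p = 0.595, adjusted p = 0.921), and the former was 0.53 without exposed mouse 2.

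Brown fat burns fuel for heat through Ucp1, the uncoupling protein of its mitochondria, and Ucp1 varied over the same mice. Ucp1 stood at 9.99, 4.22, 9.45, 10.73 and 10.01 in exposed mice 1 to 5 and at 4.38, 8.90, 8.11, 6.67 and 9.65 in unexposed mice 1 to 5. Its lowest values were those of exposed mouse 2 and unexposed mice 1 and 4, the mice in which Cox7a1 was lowest. Its change between the groups was 1.34 (SE 1.26, adjusted p = 0.584). Cidea, a lipid droplet protein of brown fat, stood at 7.11, 5.05, 7.28, 7.83 and 7.18 in exposed and 6.43, 7.53, 6.91, 6.68 and 7.72 in unexposed mice 1 to 5. The general fat cell gene Adipoq was lowest in exposed mouse 2 as well, at 6.75, with 8.23 to 9.04 in the other mice. Of the 6 adipocyte markers measured 0 were called by limma in either direction, with adjusted p of 0.584 to 0.962. With the mean of these markers as a covariate, an alternative chosen after the values were seen, Cox6a2 changed by 1.00 (adjusted p = 0.0284), Cox7a1 by 0.50 (adjusted p = 0.286) and Cox8b by -0.42 (adjusted p = 0.126).

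**Figure D4:**
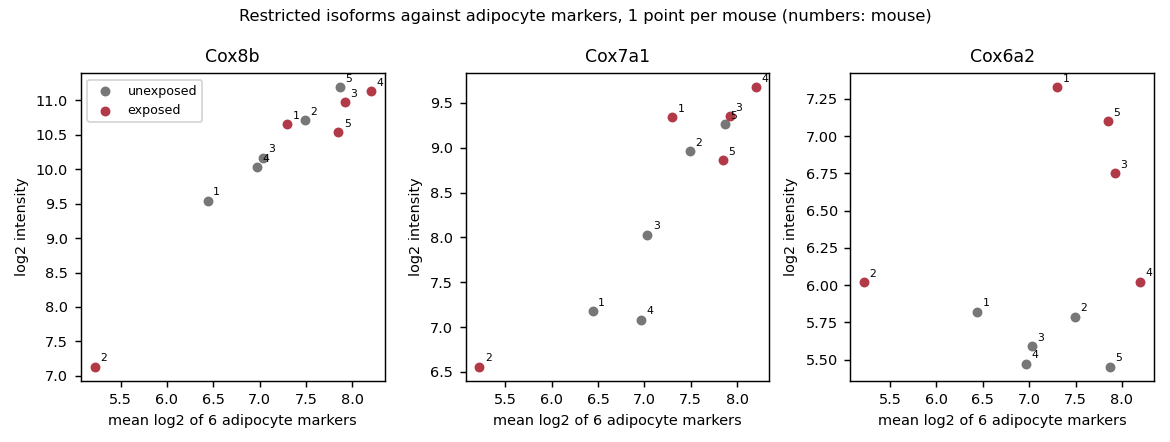
Log2 intensity of Cox8b, Cox7a1 and Cox6a2 against the mean log2 value of 6 adipocyte markers (Adipoq, Plin1, Cidec, Lep, Ucp1 and Cidea), 1 numbered point per mouse. Cox8b and Cox7a1 climb with the markers from exposed mouse 2 at the lower left, while Cox6a2 separates the groups at like marker levels.

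The promoters of Cox8b and Cox7a1, the members that varied most from mouse to mouse, are printed beside those of their widespread counterparts. Each runs from 250 bases before the start of transcription to 50 after it, 5′ to 3′ along the gene, from RefSeq on build GRCm38.p6. Capitals mark exact matches on either strand to 4 motifs, which do not overlap one another here. The first is GCATGCGC, the core bound by NRF1, and the next is CCGGAAG, bound by factors of the ETS family. The third is AAGATGGCG, bound by YY1, and the last is the TATA box, searched as TATAAA.
Cox8b, chr7:140900397-140900696, minus strand: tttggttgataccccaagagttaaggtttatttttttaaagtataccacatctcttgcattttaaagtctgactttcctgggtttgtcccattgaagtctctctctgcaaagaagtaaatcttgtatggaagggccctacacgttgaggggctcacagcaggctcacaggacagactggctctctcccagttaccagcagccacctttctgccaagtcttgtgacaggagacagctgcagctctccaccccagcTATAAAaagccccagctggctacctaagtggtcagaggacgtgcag
Cox8a, chr19:7217567-7217866, minus strand: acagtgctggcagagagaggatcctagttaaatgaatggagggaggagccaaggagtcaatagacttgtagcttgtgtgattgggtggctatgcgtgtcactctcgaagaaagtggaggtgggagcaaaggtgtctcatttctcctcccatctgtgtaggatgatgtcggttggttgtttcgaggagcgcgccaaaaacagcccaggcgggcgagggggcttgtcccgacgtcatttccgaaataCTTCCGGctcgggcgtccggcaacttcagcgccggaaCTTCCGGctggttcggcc
Cox7a1, chr7:30183921-30184220, plus strand: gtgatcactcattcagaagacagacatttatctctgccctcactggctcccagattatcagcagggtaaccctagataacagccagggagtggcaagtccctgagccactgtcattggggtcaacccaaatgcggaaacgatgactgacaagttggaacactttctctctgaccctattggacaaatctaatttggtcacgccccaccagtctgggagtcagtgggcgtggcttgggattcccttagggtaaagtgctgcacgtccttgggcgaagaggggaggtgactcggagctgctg
Cox7a2, chr9:79759804-79760103, minus strand: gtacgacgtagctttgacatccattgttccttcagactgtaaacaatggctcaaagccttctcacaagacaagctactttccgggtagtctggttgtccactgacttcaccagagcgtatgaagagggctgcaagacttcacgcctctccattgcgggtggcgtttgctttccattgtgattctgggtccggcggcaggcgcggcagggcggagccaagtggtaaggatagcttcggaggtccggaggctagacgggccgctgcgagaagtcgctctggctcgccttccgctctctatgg
The Cox8b window holds the letters TATAAA, which lie within the 50 bases after the stated start. The Cox8a window holds the ETS motif at 2 places, both on the opposite strand, while the Cox7a1 and Cox7a2 windows hold none of the 4 motifs. Promoters were at hand for 65 of the 80 members. Of these, 24.6% held the ETS motif, 15.4% that of NRF1, 7.69% that of YY1 and 12.3% the letters TATAAA anywhere in the window. The shares over the promoters of 27025 genes were 9.12%, 2.8%, 1.49% and 14.2%. These are matches of letters and do not show that a factor was bound.

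The mitochondrial genome encodes further subunits, and those measured here belong to complexes I, III and IV. None of the 10 with a probe set of their own was called by limma, and 0 were higher or lower at an unadjusted p under 0.05. Their changes ran from -0.092 to 0.0037 with a median of -0.049, and all 10 intervals lay within 1.5-fold. The gene with the smallest p was ND2 (mt-Nd2), whose exposed values were 11.89 to 12.09 and unexposed values 12.03 to 12.08 (change -0.089, SE 0.077, adjusted p = 0.543). Group means reached 12.96 in exposed and 13.03 in unexposed mice (ND4), near the top of the array's scale, where intensities may be compressed.

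Around the complexes, single genes passed in both directions while the medians of most lists lay near 0. Over the 7 lists 8 of 120 genes were called (6.67%) and the groups of 8 did not overlap (6.67%), where 10.8% of all genes were called and the groups of 11% did not overlap. By list, the share called was 18.2% for the cristae genes and 14.3% for the mobile carriers, each with 1 rise and 1 fall. In the remaining lists it was at most 7.69%. Of 47 factors that assemble the complexes 2 rose and 0 fell (median change -0.0069, with 5 higher and 3 lower at an unadjusted p under 0.05), both acting on complex I, namely Tmem186 (0.45, SE 0.11, adjusted p = 0.0251) and Timmdc1 (0.39, SE 0.097, adjusted p = 0.0249). Of 14 genes for mobile carriers and coenzyme Q synthesis 1 rose and 1 fell (median -0.032). Cycs, the cytochrome c that links complexes III and IV, stood at 8.07, 8.06, 7.99, 8.47 and 8.36 in exposed mice 1 to 5 and at 7.72, 7.77, 7.84, 7.76 and 7.85 in unexposed mice 1 to 5, with no overlap (change 0.40, SE 0.11, adjusted p = 0.0345). Coq10b, which binds coenzyme Q, fell by 0.55 (SE 0.11, adjusted p = 0.00731), with unexposed values of 7.68 to 8.16 and exposed values of 7.27 to 7.50. Of 13 tricarboxylic acid cycle genes 1 rose and 0 fell (median -0.0075, with 3 higher and 1 lower at an unadjusted p under 0.05), the riser being the malate dehydrogenase Mdh2 (0.34, SE 0.090, adjusted p = 0.0338).

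Of 14 regulators of mitochondrial transcription and biogenesis 0 rose and 1 fell (median 0.069, with 1 higher and 1 lower at an unadjusted p under 0.05). It was Ppargc1a, the coactivator that drives mitochondrial biogenesis and the brown fat programme, which stood at 6.46, 5.99, 5.86, 5.81 and 6.38 in exposed mice 1 to 5 and at 7.11, 6.93, 6.53, 6.89 and 6.47 in unexposed mice 1 to 5. The groups did not overlap, although exposed mouse 1 and unexposed mouse 5 nearly met, and the change was -0.69 (SE 0.17, adjusted p = 0.0232). Of 11 genes for uncoupling proteins and carriers 0 were called by limma in either direction (median 0.13), with 2 higher and 0 lower at an unadjusted p under 0.05. The smallest p was that of Ckmt2, the creatine kinase of muscle mitochondria (0.51, SE 0.21, adjusted p = 0.159). Ckmt2 was dim, at 4.45, 3.64, 3.91, 3.85 and 4.72 in exposed mice 1 to 5, where unexposed mice reached 3.84. Exposed mice 1, 3 and 5 were the highest in Cox6a2, and mouse 3 was near the highest unexposed value in Ckmt2. A relation between these genes was not tested. Of 11 genes shaping the cristae 1 rose and 1 fell (median 0.065), the prohibitin Phb2 (0.42, SE 0.10, adjusted p = 0.0261) and Chchd6, a component of the cristae junction complex (-0.83, SE 0.19, adjusted p = 0.0179).

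Of the 8 genes called in these lists, Coq10b and Chchd6 kept their calls without any 1 mouse. Omitting exposed mouse 4, or any of unexposed mice 1, 2 and 5, ended the calls of Tmem186 (adjusted p 0.0174 to 0.0626 over all 10 omissions) and Timmdc1 (0.0154 to 0.0627), and for Timmdc1 so did omitting unexposed mouse 3. Cycs was called only where exposed mouse 1, 2 or 3 was the one omitted (0.0232 to 0.0820), and Mdh2 only where it was exposed mouse 3 or unexposed mouse 5 (0.0275 to 0.0827). Omitting either of exposed mice 2 and 4 ended the calls of Ppargc1a (0.0112 to 0.0600) and Phb2 (0.0138 to 0.0621), as did omitting unexposed mouse 1 or 4, and further unexposed mouse 2 for Ppargc1a and unexposed mice 3 and 5 for Phb2. With the mouse number as a replicate block Cycs, Mdh2 and Phb2 lost their calls (adjusted p = 0.0751, 0.0868 and 0.0816), although the numbers name separate mice.

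**Figure D5:**
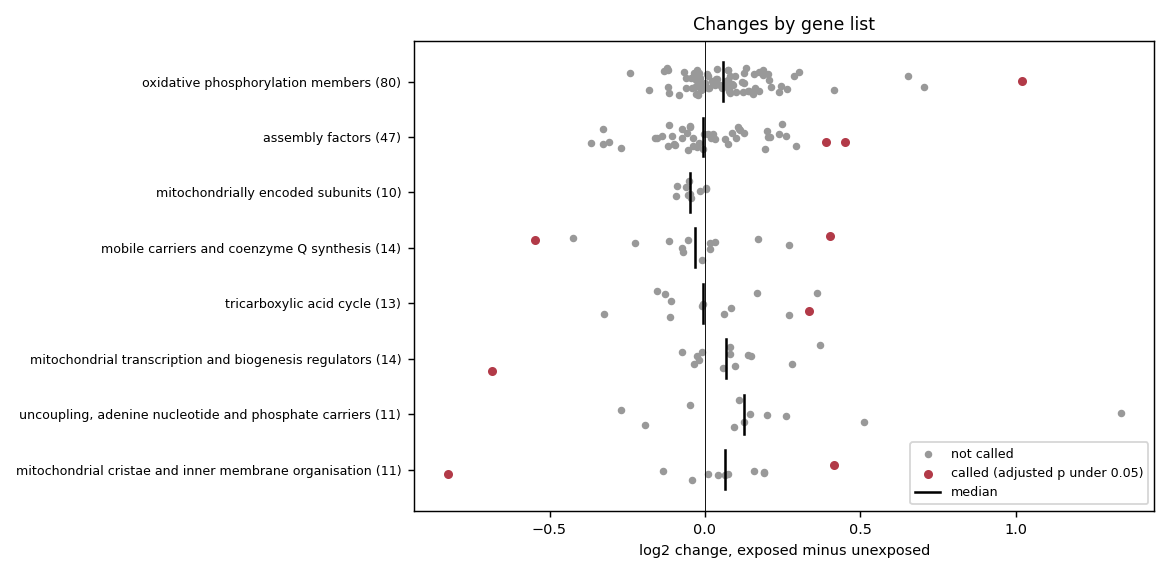
Log2 change of each gene, exposed minus unexposed, for the 80 members and for 7 lists of genes that work with them, with the number measured in brackets, called genes in red and a bar at the median. Most genes of each list are grey and the medians lie between -0.049 and 0.13.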

How the data were processed

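RNA was measured in laser-captured subepithelial mesenchyme of the trachea from 10 mice, 5 exposed to chlorine and 5 unexposed, grouped by sample title. The deposited values are log2 intensities per probe set, which the authors made with Partek 6.6 and RMA (robust multi-array averaging), as named in the submitters' processing notes, with settings not given in the sources used here. Of 41345 probe sets, 23521 had 1 symbol in the platform annotation, 1814 several and 16010 none. A gene's value is the mean log2 value of its single-symbol probe sets, which gave 22180 genes. For 9 members with several probe sets, those of 2 (Cox7b and Ndufa11) differed in the sign of the change. No gene could be called above background. Array medians were 5.10 to 5.18.

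The comparison used limma's lmFit and eBayes (version 3.58.1, R 4.3.3), two-sided and without covariates, with Benjamini-Hochberg adjustment over all genes, after a check on simulated data. The 95% intervals and SEs are limma's. Isoform differences within arrays were compared by exact permutation of mice, adjusted over 4 pairs. Alternatives were a further quantile normalization, median centring, leaving out genes with a mean under 5, the brightest probe set, trend and robust variances, array weights, a replicate block, each mouse left out, each probe set by itself and an adjusted p under 0.01. Members, lists and rules were chosen with earlier results of these data known. Named members were those called, the 2 of smallest p and the largest change in each direction per complex, all complex II genes, the isoforms of complexes IV and V, and, from each other list, up to 3 called genes in each direction or the gene of smallest p. Ndufv1, Ndufs1, Uqcrc1, Uqcrc2, Ucp1, Cidea, Adipoq, Acta1, Myh4, Ckm, Tnnt3, ND4 and the other cell type markers were picked for naming with their values in view. Mitochondrially encoded genes were matched as ND1, COX1 and the like. Same-numbered mice had correlations of -0.0488 to 0.125 between their deviations from the group means. Differently numbered mice were not compared, so these values do not settle whether the numbers pair mice. By their titles they were treated as separate mice. Sequences are from RefSeq (GRCm38.p6). Figures were drawn by matplotlib 3.10.9.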

Additional observations from a re-analysis of the deposited data

Results flagged for a closer look

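Of 88 groups of 5 mice examined, 7 held a mouse whose gap to the nearest other mouse exceeded the 95% limit for its group's range, where chance gives about 1 in 20. Exposed mouse 2 was far below the other exposed mice in Cox7a1 (6.56, with 8.86 to 9.67 in the others), in Cox8b (7.13, with 10.54 to 11.14) and in the difference of Cox8b minus Cox8a (-3.40, with -0.063 to 0.62). Exposed mouse 3 was below the others in Ndufa4 (11.31, with 11.78 to 11.82), and unexposed mouse 1 above them (11.47, with 11.37 to 11.40). Unexposed mouse 3 was highest in ND2 (12.08, with 12.03 to 12.04), and unexposed mouse 5 lowest in Phb2 (7.66, with 7.79 to 7.83).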

How the results depend on the processing

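The number of members called higher was 1 and became 2 with trend and robust variances and with array weights (Cox6a2 and Ndufa4 in both), 0 at an adjusted p under 0.01, and 0 to 2 with 1 mouse left out. It was 1 in the other alternatives, the replicate block among them, and the number called lower was 0 throughout. The share of all genes called also moved. It was 11.9% with trend and robust variances, 12.4% with array weights, 8.48% with the replicate block and 7.52% to 12.8% with 1 mouse left out. With dim genes left out it was 20.7%, and Cox6a2 was the only member called of the 74 kept. The median change of the members moved by less than the spread between mice in all alternatives. The call of Cox6a2 held in all alternatives other than without the 3 mice named above and at the stricter threshold. The Cox6a2 minus Cox6a1 difference was 0.83 to 1.15 with 1 mouse left out and no longer passed in 6 of 14 alternatives, 5 of them the omission of an unexposed mouse (adjusted p 0.0952 to 0.159), and its pairing by replicate block (0.99, p = 0.0625 by exact sign changes, the smallest that 5 pairs allow) could not pass. In those 5 omissions the exposed and unexposed values still did not overlap. Cox8b minus Cox8a ran from -0.48 to 0.53, and Cox4i2 minus Cox4i1 from -0.023 to 0.14, with 1 mouse left out.

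None of the signs that turned belonged to a called gene. With 1 mouse left out, Cox8b ran from -0.50 to 0.50, Cox8a from -0.073 to 0.0074, Sdhc from -0.022 to 0.070, Cox7b2 from -0.020 to 0.098, Atp5g3 from -0.024 to 0.12 and Cox7b from -0.038 to 0.042. Cox7b was also 0.016 with median centring, 0.022 with the brightest probe set and 0.020 with array weights.
In the lists around the complexes, an adjusted p under 0.01 left 0 called higher among assembly factors, mobile carriers, cycle genes and cristae genes, and 0 called lower among regulators and cristae genes. With the replicate block 0 mobile carriers, 0 cycle genes and 0 cristae genes were higher. With the brightest probe set 0 mobile carriers and 2 cristae genes were higher. Without dim genes 1 assembly factor was lower and 3 cycle genes were higher, and with trend and robust variances 3 cycle genes were higher. With 1 mouse left out, counts were 0 to 2 for assembly factors higher, 1 to 2 for mobile carriers lower, and 0 to 1 for assembly factors lower, mobile carriers higher, cycle genes higher, regulators in each direction, uncoupling and carrier genes higher and cristae genes higher.
The cause of these differences was not tested. With 5 mice a group, small changes of single genes lie near the limit of what the test can call, and no array signal over background was at hand to judge dim genes.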

Other observations

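Over the 10 mice, both groups together, the mean of the 6 adipocyte markers was set against 4 restricted isoforms whose groups overlap, as was the mean of the 9 striated muscle markers, 8 relations in all, a choice made after the values were seen. Cox8b rose with the adipocyte mean (Pearson's r = 0.963, permutation p = 4e-05, adjusted p = 0.00032, Spearman's rho = 0.927, permutation p = 0.00036, adjusted p = 0.00288), and r was 0.878 without exposed mouse 2 and unexposed mouse 1, the mice farthest from the median. So did Cox7a1 (r = 0.894, permutation p = 0.00018, adjusted p = 0.00072, rho = 0.903, permutation p = 0.00077, adjusted p = 0.00308), with r = 0.810 without the same mice. The other 6 relations did not pass (adjusted permutation p 0.394 to 0.992 for r and 0.136 to 0.946 for rho), among them Cox8b with the striated muscle mean (r = 0.478, rho = 0.648). The arrays share their normalization, and no correlation was computed within a group of 5. In order of the adipocyte mean, lowest first, the unexposed mice ran 1, 4, 3, 2 and 5, and Cox8b put them in the same order. Of the 6 markers, Ucp1, Cidec and Cidea each gave this order too, while Adipoq, Plin1 and Lep did not. Ucp1 weighs most in the differences of this mean between mice, with a within-group SD of 2.38 where the other markers had 0.42 to 1.15. The exposed mice ran 2, 1, 5, 3 and 4 by the adipocyte mean and 2, 5, 1, 3 and 4 by Cox8b.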
